A study of Hansenula anomala with 15 samples.

Results

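Transcripts of the proteasome of Wickerhamomyces anomalus, a yeast whose organism label is Hansenula anomala, were followed in whole fermentation broth at 0, 16, 32, 48 and 64 h. The members are the genes whose KOG description, a eukaryotic orthologous group assigned by the authors' annotation, names the 20S or the 26S proteasome in any case of letters. This rule found 35 of 6571 genes. Of these, 14 encode the core particle (7 of the alpha ring and 7 of the beta ring) and 17 the regulatory particle (6 Rpt ATPases and 11 Rpn subunits). The other 4 are called assembly-annotated here. NOB1 and PNO1 are annotated for assembly of the 26S proteasome. NAS2 and a PSMD10-like gene are annotated as subunits PSMD9 and PSMD10 of the regulatory complex, and were not counted in the regulatory particle. Each time point had 3 biological replicates per the labels, polyadenylated RNA was sequenced, and the broth came from apricot fermentation studied for its volatile compounds. The labels give the groups no treatment, strain name or batch beyond the time point, so 0 h is the only baseline. Symbols rest on homology to other yeasts, mainly Saccharomyces cerevisiae. RPN13 and SEM1, subunits of the regulatory particle in that species, are not captured by the rule and are described with the helpers of the proteasome.

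The proteasome is the protease that degrades ubiquitin-tagged proteins in the cytosol and nucleus. Its core particle is a barrel of stacked alpha and beta rings: the alpha rings gate the entry, and a few beta subunits cut peptide bonds on the inside. The regulatory particle caps the barrel, binds ubiquitin chains through receptors, removes them with a deubiquitinase and unfolds the substrate with a ring of Rpt ATPases. In S. cerevisiae the transcription factor Rpn4 drives the subunit genes together and is itself a short-lived substrate of the proteasome.

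Library totals were 17.6 to 40.1 M counts, at which 3 counts correspond to 0.0748 to 0.171 CPM (counts per 1 M counts). All 35 members passed the filter on low counts, and the lowest count of a member in any library was 53. Levels are CPM scaled by TMM and ± marks the SD over the n = 3 libraries of a time point. The words rose, fell and called are used for an adjusted p under 0.05 in the edgeR fit. The TMM factors spanned 0.389 to 1.827, and scaling by library size alone moved the median log2 fold change of all 6327 tested genes by -0.69 for 16 h against 0 h, 0.50 for 32 h against 0 h, 0.26 for 64 h against 0 h, 1.16 for 32 h against 16 h and 0.93 for 64 h against 16 h. Directions below are therefore relative to the bulk of the genes. Expressed without TMM, the members took 0.269% to 0.331% of all counts in the 0 h libraries and 0.0901% to 0.214% in those of 16 h. Their share was 0.356% to 0.462% at 32 h, 0.405% to 0.531% at 48 h and 0.262% to 0.491% at 64 h. In bulk RNA of a broth, fewer cells of a kind and less RNA per cell cannot be told apart.

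Some libraries stood apart from their replicates. Across tested genes, 16 h replicate 2 had a rank correlation of at most 0.742 with its own time point. The 64 h replicate 3 was closer to 32 h replicate 2 (0.951) than to its own group (0.837), and 32 h replicate 3 was closer to 48 h replicate 2 (0.965) than to its own (0.886). Of the 48 h libraries, replicate 1 was closer to 32 h replicate 2 (0.954, against 0.935 in its own group) and replicate 2 to 32 h replicate 3 (0.965, against 0.955). The 0 h replicate 3 differed from its mates by gene length: the rank correlation of its log2 ratio to them with length was -0.477 over the tested genes. The median gene length was 862 bp in the core, 1257 bp in the regulatory particle and 1215 bp over all tested genes. Of the 14 core genes, 13 were highest at 0 h in replicate 3, against 5 of the 17 regulatory genes and 43.1% of all tested genes. The part of gene length in this was not tested.

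Per length of gene, core transcripts stood above those of the regulatory particle. The mean level over 15 libraries had a median of 123 CPM per kb over the core genes (68.6 to 393) and of 43.1 CPM per kb over the regulatory genes (9.8 to 121). PRE7, a non-catalytic beta subunit, had the highest mean over the course at 393 CPM per kb. PRE2, which carries the chymotrypsin-like site, followed at 303 CPM per kb, then the alpha subunit SCL1 at 229 and PRE3, the caspase-like site, at 207. In the regulatory particle the ATPase gene RPT4 stood highest at 121 CPM per kb, and the lid gene RPN3 was the lowest of all members at 9.8 CPM per kb. The order of the means differed at single time points, which was not tested. At 0 h PRE2 had 270 ± 110 and PRE7 265 ± 88.4 CPM per kb, a gap well within their spread. At 64 h RPN1 had 145 ± 32 and RPT4 119 ± 5.24, and NOB1 had 3.97 ± 2.3 and RPN3 7.37 ± 1.31 CPM per kb. Within the 26S complex the subunits are incorporated in fixed copy numbers. The levels per length nevertheless spread 5.73-fold over the core genes and 12.3-fold over the regulatory genes.

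**Figure D1:**
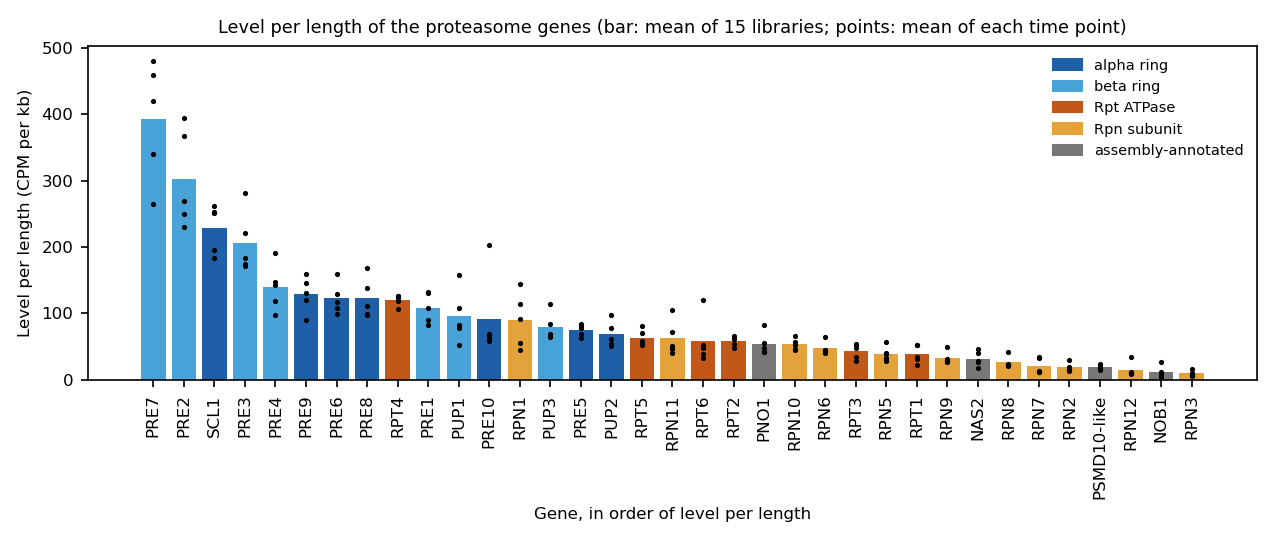
Mean level of the 35 proteasome genes per kb of gene length (TMM-scaled CPM per kb, linear axis), in order of level; bars are means of 15 libraries, points the means of the 5 time points, and colours the subunit classes. Core genes fill the upper end, led by PRE7 at 393 CPM per kb, and RPT4 is the highest regulatory gene at 121.

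Over the 5 time points together, 15 of the 35 members (42.9%) changed, against 68.5% of all tested genes. The calls were 3 of 14 in the core (PRE10, PUP1 and PUP2), 10 of 17 in the regulatory particle (RPN1, RPN2, RPN3, RPN7, RPN8, RPN9, RPN11, RPN12, RPT1 and RPT6) and 2 of 4 among the assembly-annotated genes (NOB1 and PNO1), a split whose difference was not tested. With TMM, the calls of PUP2, RPN2, RPN3, RPN8, RPN9, RPN11, NOB1 and PNO1 were each lost without some single library. With library size scaling 28 members passed, against 76% of all genes. The highest mean level was at 0 h for 8 core and 12 regulatory genes, and at 64 h for 5 core genes and 1 regulatory gene. The matching shares of all tested genes were not computed. In the core, 13 of 14 genes had their highest 0 h value in replicate 3.

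At 16 h against 0 h, 9 members fell and 0 rose, while 17.8% of all tested genes fell and 22.6% rose. The falls were PRE10 in the core and RPN2, RPN3, RPN8, RPN9, RPN11, RPN12, RPT1 and RPT6 in the regulatory particle. All 9 also fell with library size scaling, where 17 members fell and 0 rose, against 27.7% and 9.8% of all genes. At 32 h against 0 h, 10 members fell and 2 rose, against 25.9% and 25.8% of all genes. The falls were PRE10, PUP1 and PUP2 in the core and RPN2, RPN3, RPN7, RPN8, RPN11, RPN12 and RPT6 in the regulatory particle, and the rises were RPN1 and NAS2. With library size scaling 2 of these falls remained (PRE10 and RPN12) and 6 members rose, RPN1 and NAS2 among them, against 14.1% and 31.3% of all genes. Of the 10 falls with TMM, 4 held with each library left out in turn (PRE10, RPN7, RPN11 and RPN12), and neither rise did. At 64 h against 0 h, 11 members fell and 2 rose, against 25.8% and 26.6% of all genes. PRE10 and PUP1 fell in the core, RPN2, RPN3, RPN6, RPN7, RPN8, RPN9, RPN12, RPT1 and RPT6 fell in the regulatory particle, and RPN1 and NAS2 rose. With library size scaling 5 falls remained (PRE10, PUP1, RPN7, RPN12 and RPT6) and 3 members rose, against 17.2% and 27.2% of all genes. With TMM, the falls of RPN2, RPN6, RPN8, RPN9 and RPT1 and the rise of NAS2 were each lost without some single library. These comparisons share the 0 h libraries, so they are not independent of each other.

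**Figure D2:**
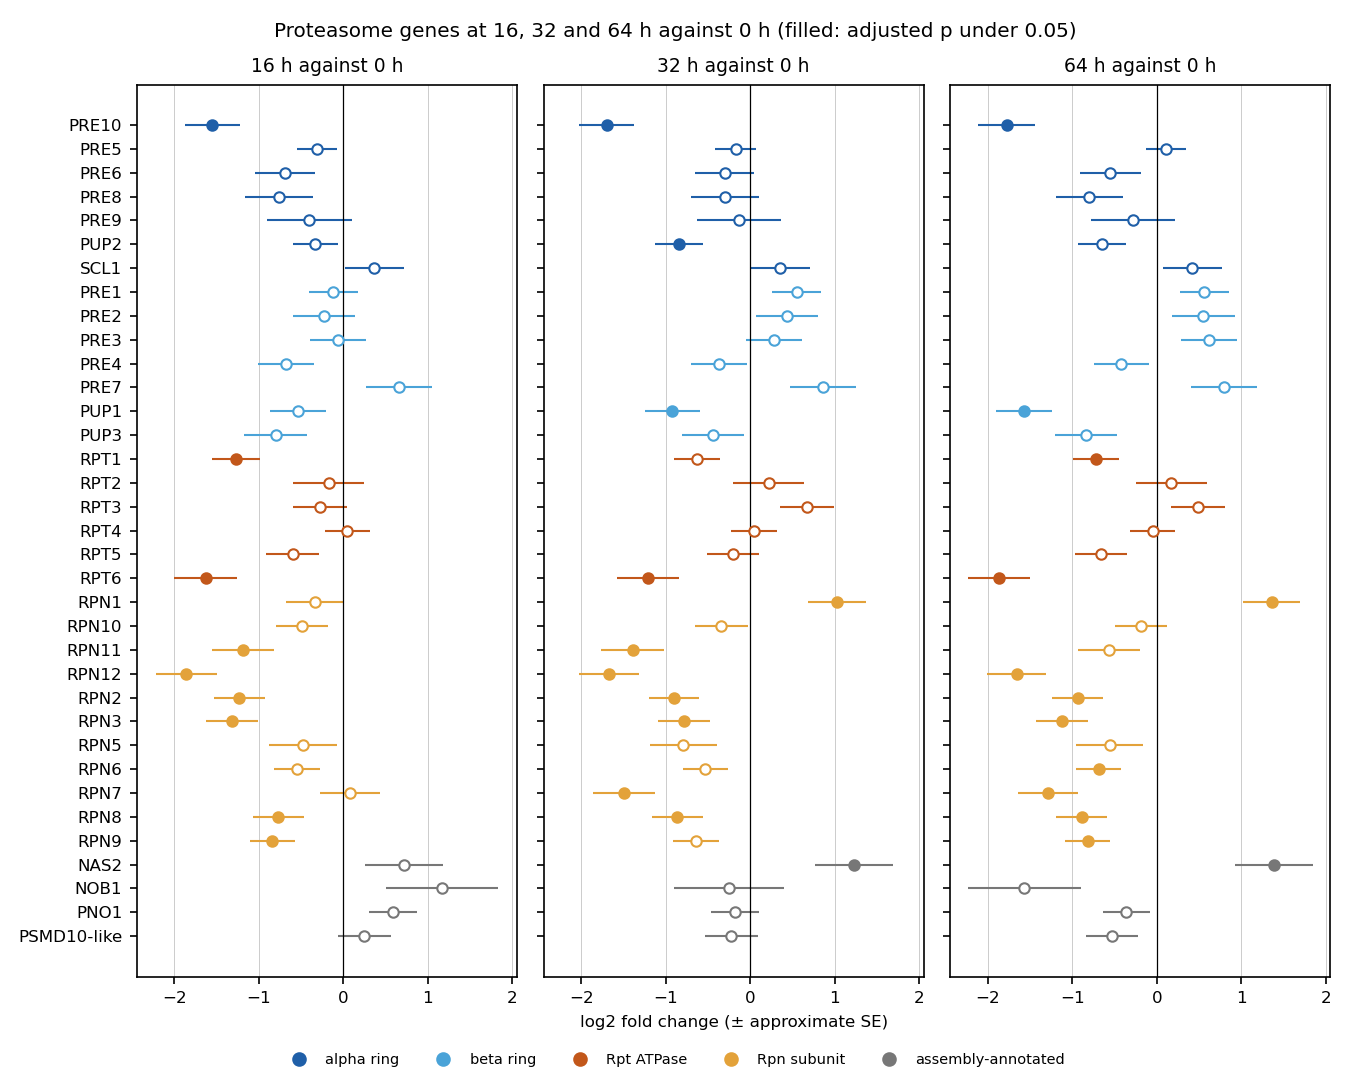
Log2 fold change of each of the 35 members at 16, 32 and 64 h against 0 h, from the edgeR fit with TMM scaling; bars are approximate SE, filled points have an adjusted p under 0.05, and colours are the subunit classes. Filled points lie to the left of 0 for PRE10, RPN12 and RPT6 in each panel, and to the right for RPN1 and NAS2 at 32 and 64 h.

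In the alpha ring, the gate of the core particle, 1 of 7 genes fell at 16 h, 2 at 32 h and 1 at 64 h against 0 h, and 0 rose. Among all tested genes, 17.8%, 25.9% and 25.8% fell and 22.6%, 25.8% and 26.6% rose in the same comparisons. PRE10 (WICANDRAFT_81632) had 153, 133 and 262 CPM at 0 h, 65.4, 43.1 and 79.0 at 16 h, 49.4, 73.0 and 46.1 at 32 h, 65.8, 61.4 and 55.0 at 48 h, and 47.5, 58.0 and 54.1 at 64 h. Every 0 h library was above every later one, and replicate 3 was the highest of them. PRE10 was 2.92-fold lower at 16 h than at 0 h (log2 fold change -1.55, SE 0.33, adjusted p = 0.00209), 3.25-fold lower at 32 h (-1.70, SE 0.33, adjusted p = 0.000775) and 3.43-fold lower at 64 h (-1.78, SE 0.34, adjusted p = 0.000566). These calls held with each library left out in turn and with library size scaling. PUP2 averaged 44.5 ± 2.16 CPM at 32 h and 79.5 ± 17.0 CPM at 0 h (adjusted p = 0.0200), a call lost without 0 h replicate 3 and without 32 h replicate 1 or 2. The other alpha genes did not pass against 0 h in any of the 3 comparisons. SCL1 was the alpha gene with positive values throughout (0.37, 0.36 and 0.42 at 16, 32 and 64 h, lowest adjusted p = 0.325). PRE9, dispensable in S. cerevisiae, spread most between replicates, with 37.1, 161 and 60.7 CPM at 16 h.

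The beta ring holds the catalytic subunits, of which PUP1 passed against 0 h and PRE2 and PRE3 did not. PUP1 (WICANDRAFT_31243), the trypsin-like subunit, had 122, 112 and 174 CPM at 0 h, 66.8, 119 and 95.0 at 16 h, 75.7, 86.8 and 52.6 at 32 h, 79.4, 63.6 and 59.2 at 48 h, and 34.5, 43.4 and 59.4 at 64 h. Its 32, 48 and 64 h libraries all lay below the 0 h libraries, while 16 h replicate 2 reached into them. PUP1 was 1.90-fold lower at 32 h than at 0 h (log2 fold change -0.92, SE 0.33, adjusted p = 0.0282), a call lost without 0 h replicate 3 or 32 h replicate 1 or 3. At 64 h it was 2.97-fold lower (-1.57, SE 0.33, adjusted p = 0.00131), a call that held with each library left out and with library size scaling (-1.21).

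PRE2 (WICANDRAFT_81512) had 203, 155 and 337 CPM at 0 h, 149, 283 and 161 at 16 h, 355, 352 and 238 at 32 h, 232, 200 and 211 at 48 h, and 277, 311 and 428 at 64 h. The 0 h values overlapped those of every other time point, and the gene did not pass over the course (adjusted p = 0.220). PRE3 (WICANDRAFT_61361) had 153, 132 and 198 CPM at 0 h, 137, 214 and 110 at 16 h, 231, 206 and 148 at 32 h, 181, 127 and 143 at 48 h, and 206, 256 and 277 at 64 h. Its 64 h libraries were all above its 0 h libraries, by a log2 fold change of 0.62 (SE 0.33), but the adjusted p was 0.127. At 64 h against 0 h the log2 fold changes of the 3 catalytic genes were thus -1.57 for PUP1, 0.55 for PRE2 and 0.62 for PRE3. Whether they differ from each other was not tested. Of the non-catalytic beta genes, PRE1, PRE4, PRE7 and PUP3 did not pass against 0 h. PRE7 had the highest positive values among them (0.66, 0.86 and 0.79 at 16, 32 and 64 h), and it passed at 32 and 64 h with library size scaling and without 0 h replicate 3.

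Among the 6 Rpt ATPases, which thread the substrate into the core, RPT1 and RPT6 fell at 16 and 64 h against 0 h and RPT6 also at 32 h. RPT6 (WICANDRAFT_35396) had 121, 117 and 212 CPM at 0 h, 44.6, 30.8 and 69.8 at 16 h, 65.7, 75.3 and 53.5 at 32 h, 72.0, 52.0 and 58.4 at 48 h, and 27.6, 42.5 and 53.1 at 64 h. The 0 h libraries stood above all 12 others. RPT6 was 3.10-fold lower at 16 h than at 0 h (log2 fold change -1.63, SE 0.37, adjusted p = 0.00292), 2.32-fold lower at 32 h (-1.21, SE 0.37, adjusted p = 0.0127) and 3.65-fold lower at 64 h (-1.87, SE 0.37, adjusted p = 0.000856). The call at 32 h was lost without 0 h replicate 3, and with library size scaling. RPT1 averaged 31.0 ± 5.15 CPM at 16 h and 74.7 ± 12.8 CPM at 0 h (2.41-fold lower, adjusted p = 0.00222). Its mean at 48 h was 73.5 ± 18.1 CPM. At 64 h RPT1 was 1.65-fold lower than at 0 h (adjusted p = 0.0371). This call was lost without 0 h replicate 1 or 2, 32 h replicate 1, any 48 h library, or 64 h replicate 1 or 2. It was also lost with library size scaling (adjusted p = 0.344). RPT4, the most abundant Rpt transcript, stayed between 110 and 198 CPM in all 15 libraries and did not pass against 0 h. RPT2 and RPT5 did not pass against 0 h either.

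Of the 11 Rpn genes, 6 fell at 16 h, 6 at 32 h and 7 at 64 h against 0 h, and 0, 1 and 1 rose. Of all tested genes, 17.8%, 25.9% and 25.8% fell and 22.6%, 25.8% and 26.6% rose in these comparisons. RPN12 (WICANDRAFT_64786), a lid subunit known to complete lid assembly in S. cerevisiae, had 20.4, 25.9 and 41.3 CPM at 0 h, 9.89, 6.65 and 7.53 at 16 h, 7.17, 9.43 and 11 at 32 h, 12.8, 7.85 and 8.08 at 48 h, and 8.03, 12.9 and 6.81 at 64 h. No later library reached the 0 h range. RPN12 was 3.64-fold lower at 16 h than at 0 h (log2 fold change -1.86, SE 0.36, adjusted p = 0.000863), 3.17-fold lower at 32 h (adjusted p = 0.00128) and 3.16-fold lower at 64 h (adjusted p = 0.00132). These calls held with each library left out and with library size scaling (-2.52, -1.07 and -1.42).

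RPN11 (WICANDRAFT_25414), the deubiquitinase of the lid, had 104, 125 and 69.1 CPM at 0 h, 25.4, 63.3 and 42.2 at 16 h, 32.0, 40.3 and 41.6 at 32 h, 55.4, 46.3 and 41.9 at 48 h, and 53.5, 98.1 and 49.5 at 64 h. Libraries of 16, 32 and 48 h were all below those of 0 h, and 64 h replicate 2 overlapped them. RPN11 was 2.27-fold lower at 16 h than at 0 h (log2 fold change -1.19, SE 0.37, adjusted p = 0.0193) and 2.62-fold lower at 32 h (-1.39, SE 0.37, adjusted p = 0.00642). The call at 16 h was lost without 0 h replicate 1 or 2 or 16 h replicate 1, and that at 32 h was lost with library size scaling (adjusted p = 0.124). RPN8, the partner of RPN11, averaged 24.4 ± 5.07 CPM at 16 h and 41.7 ± 12.2 CPM at 0 h (adjusted p = 0.0486), and the call was lost without any of 10 single libraries, among them 0 h replicate 2 (adjusted p = 0.219).

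RPN7 (WICANDRAFT_36437), another lid subunit, differed from these in its timing. It had 35.8, 49.2 and 35.4 CPM at 0 h, 38.6, 55.4 and 33.8 at 16 h, 8.94, 15.8 and 18.2 at 32 h, 15.9, 12.8 and 12.7 at 48 h, and 10.9, 25.9 and 12.3 at 64 h. The 0 h and 16 h libraries overlapped, and all 9 later libraries were below both. RPN7 was 2.80-fold lower at 32 h than at 0 h (log2 fold change -1.49, SE 0.37, adjusted p = 0.00376) and 2.45-fold lower at 64 h (-1.29, SE 0.36, adjusted p = 0.00851). Against 16 h it was 2.97-fold lower at 32 h (adjusted p = 0.00561) and 2.60-fold lower at 64 h (adjusted p = 0.00875). Library size scaling gave -0.37 and -0.57 for the comparisons with 16 h, and neither passed.

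RPN2 and RPN1 are the large scaffold subunits of the base, and they went in opposite directions. RPN2 averaged 38.1 ± 11.5 CPM at 16 h and 89.4 ± 25.8 CPM at 0 h (2.34-fold lower, adjusted p = 0.00474), and was 1.92-fold lower at 64 h than at 0 h (adjusted p = 0.0161, and 0.0773 without 0 h replicate 2). RPN1 (WICANDRAFT_84572), which receives ubiquitin chains and shuttle proteins, had 167, 173 and 142 CPM at 0 h, 104, 179 and 98.0 at 16 h, 390, 333 and 258 at 32 h, 315, 213 and 253 at 48 h, and 477, 309 and 455 at 64 h. All 9 libraries from 32 h on were above the 6 earlier ones. RPN1 was 2.04-fold higher at 32 h than at 0 h (log2 fold change 1.03, SE 0.34, adjusted p = 0.0199), a call lost without 0 h replicate 1 or 3 or 32 h replicate 1 or 2. At 64 h it was 2.58-fold higher than at 0 h (1.36, SE 0.34, adjusted p = 0.00394), and this call held with each library left out and with library size scaling (1.62). It was the only regulatory gene called higher at 32 or 64 h than at 0 h with TMM scaling.

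RPN10 (WICANDRAFT_86392), another ubiquitin receptor, had 64.9, 64.8 and 71.1 CPM at 0 h, 33.3, 61.3 and 47.8 at 16 h, 55.1, 66.1 and 37.5 at 32 h, 56.7, 47.0 and 36.1 at 48 h, and 56.3, 71.7 and 48.1 at 64 h. Its lowest 0 h library was above all libraries of 16 and 48 h but within the range of 32 and 64 h, and it did not pass over the course (adjusted p = 0.452). RPN3, RPN5, RPN6 and RPN9 are lid subunits with the PCI fold. RPN3 averaged 9.07 ± 2.27 CPM at 16 h and 22.7 ± 5.68 CPM at 0 h (2.50-fold lower, adjusted p = 0.00374). RPN9 averaged 32.0 ± 5.87 CPM at 16 h and 57.1 ± 7.85 CPM at 0 h (adjusted p = 0.0218). The call of RPN9 was lost without 0 h replicate 2 or 16 h replicate 1 or 2. RPN6 passed at 64 h against 0 h (adjusted p = 0.0473), a call lost without any of 12 single libraries, and RPN5 did not pass against 0 h.

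**Figure D3:**
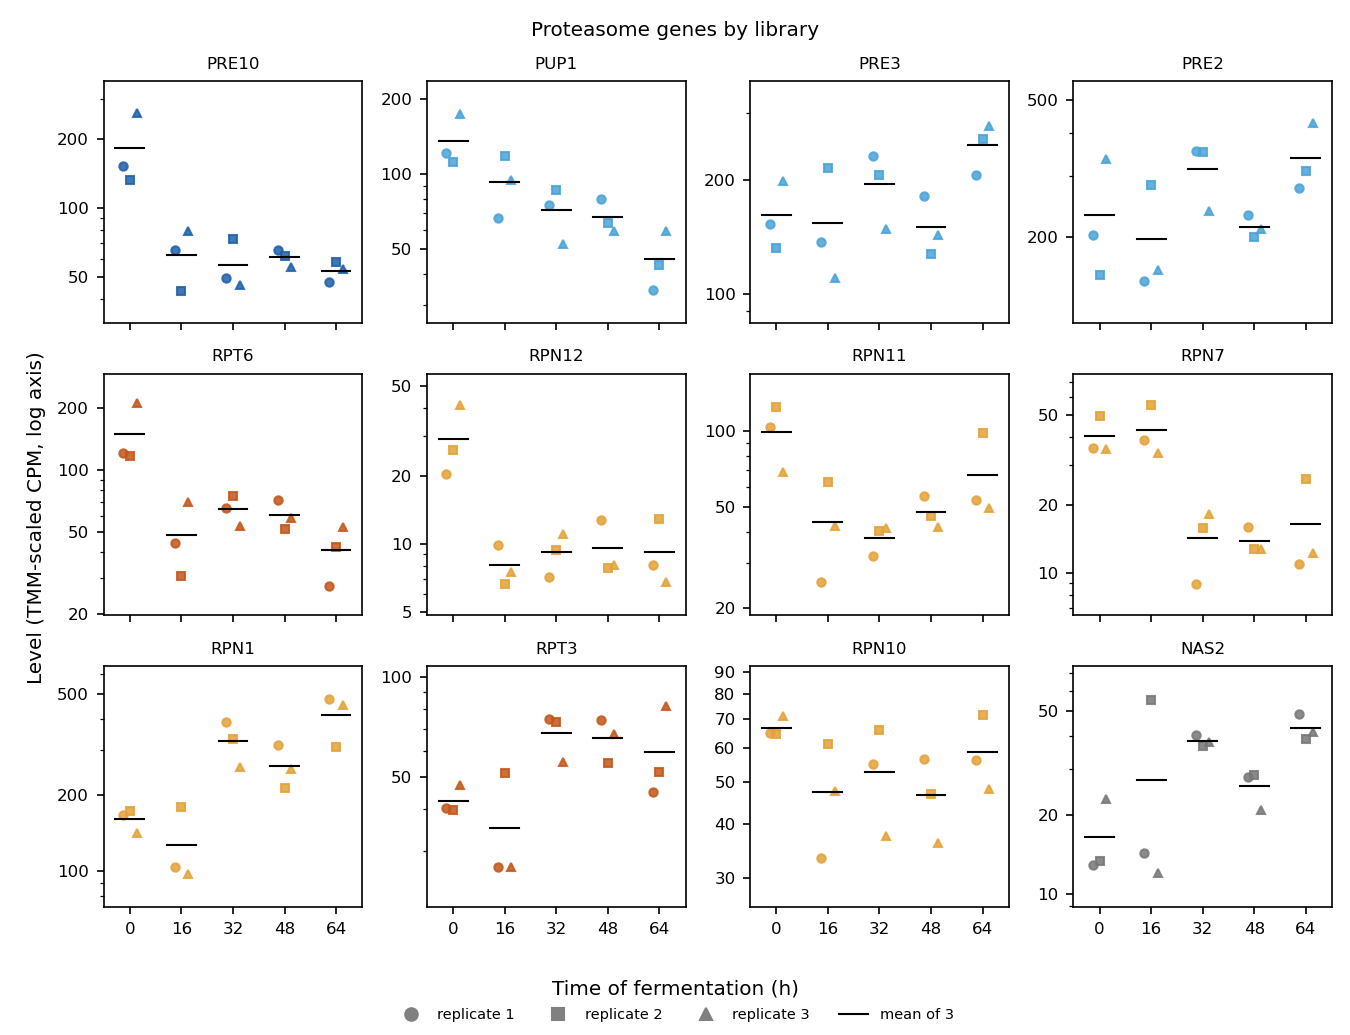
Level of 12 proteasome genes in each library (TMM-scaled CPM, log axis, a scale for each gene) against time of fermentation in h; shapes are the 3 replicates, lines the means, colours the subunit classes. PRE10, RPT6 and RPN12 are highest in all 3 libraries of 0 h, RPN7 drops after 16 h, and RPN1 is above 200 CPM in every library from 32 h on.

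The 4 assembly-annotated genes did not share a course. NAS2 (WICANDRAFT_58552), a chaperone of the Rpt ring in S. cerevisiae, had 12.9, 13.4 and 23 CPM at 0 h, 14.3, 55.2 and 12 at 16 h, 40.6, 36.8 and 38.2 at 32 h, 28, 28.4 and 20.9 at 48 h, and 48.9, 39.2 and 41.6 at 64 h. Its 32 and 64 h libraries were above all of 0 h, and at 16 h only replicate 2 was. NAS2 was 2.35-fold higher at 32 h than at 0 h (adjusted p = 0.0367) and 2.63-fold higher at 64 h (adjusted p = 0.0207). The first call was lost without any single library of 0 h replicate 1 or 2 or of 32 h, and the second without 0 h replicate 1 or 2 or 64 h replicate 1. NOB1 and PNO1 are named proteasome assembly factors in the KOG text and are known in S. cerevisiae for the maturation of the small ribosomal subunit. NOB1 had 2.64, 4.91 and 8.94 CPM at 64 h, against 14, 81.1 and 15.7 CPM at 16 h (6.70-fold lower, log2 fold change -2.74, adjusted p = 0.00698, and 0.0631 with library size scaling). NOB1 came to -1.43 on leaving out 16 h replicate 2 (adjusted p = 0.0442). PNO1 averaged 34.4 ± 12.2 CPM at 64 h and 66.6 ± 9.10 CPM at 16 h (log2 fold change -0.95, adjusted p = 0.0152), and with library size scaling it had 0.07 where the median of all genes was 0.86. The PSMD10-like gene (WICANDRAFT_81298) kept between 6.48 and 21.9 CPM and did not pass in any comparison.

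Between the later time points few members passed. At 32 h against 16 h, 2 members rose (RPN1 and RPT3) and 2 fell (RPN7 and PNO1), against 14.1% and 17.7% of all genes. RPN1 was 2.57-fold higher at 32 h than at 16 h (log2 fold change 1.36, SE 0.34, adjusted p = 0.00806). RPT3 (WICANDRAFT_84090) had 40.2, 39.7 and 47.4 CPM at 0 h, 26.8, 51.6 and 26.8 at 16 h, 74.8, 73.1 and 55.4 at 32 h, 74.1, 55.1 and 67.2 at 48 h, and 45.1, 51.7 and 81.8 at 64 h. The 32 and 48 h libraries were above all earlier ones, and those of 64 h overlapped both. RPT3 was 1.93-fold higher at 32 h than at 16 h (0.95, SE 0.32, adjusted p = 0.0371), a call lost without 0 h replicate 1, 16 h replicate 1 or 3, or 32 h replicate 1 or 2. PNO1 was lower at 32 h than at 16 h by a log2 fold change of -0.77 (adjusted p = 0.0480). That call was lost without any of 11 single libraries, and library size scaling gave 0.40. At 64 h against 16 h, RPN1 rose (3.26-fold, adjusted p = 0.00168) and PUP1, RPN7, NOB1 and PNO1 fell, against 18% and 20.8% of all genes. PUP1 was 2.05-fold lower at 64 h than at 16 h (adjusted p = 0.0221), a call lost without 16 h replicate 2 or 3 or 64 h replicate 1 or 2. The call of PNO1 at 64 h against 16 h was lost without 16 h replicate 1 or 64 h replicate 1.

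The counts against 16 h moved with the scaling, as did those of all genes. With library size scaling, 26 members rose and 0 fell at 32 h against 16 h, against 44.4% and 4.5% of all genes. At 64 h against 16 h, 16 members rose and 0 fell, against 36.4% and 6.1% of all genes. The median of all genes was then 1.10 at 32 h and 0.86 at 64 h against 16 h. PRE10, SCL1, RPN8 and RPT4 had 1.03, 1.15, 1.09 and 1.15 at 32 h against 16 h under that scaling, close to this shift, and lay at or just below 0 with TMM. At 48 h against 32 h, edgeR called 0 members and 0% of all genes in either direction. There 1 member and 347 genes had an unadjusted p under 0.05, and DESeq2 called 0 members and 2 genes. At 64 h against 48 h, 0 members were called, beside 0.0158% of genes fallen and 0% risen. For that comparison 2 members had an unadjusted p under 0.05, and DESeq2 called 0 members. Over all genes, 1559 had an unadjusted p under 0.05, DESeq2 called 876 (13.8%), and edgeR called 1158 (18.3%) without 64 h replicate 3.

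The core and the regulatory particle were set side by side. At 16 h against 0 h the median log2 fold change was -0.37 over the 14 core genes and -0.60 over the 17 regulatory genes, beside 0.09 over all tested genes. At 32 h against 0 h the medians were -0.23 for the core, -0.64 for the regulatory particle and -0.03 for all genes, and at 64 h against 0 h -0.35, -0.69 and -0.02. The core medians depended on 1 library: without 0 h replicate 3 they were -0.18, 0.12 and 0.05, and those of the regulatory particle -0.63, -0.73 and -0.77. With library size scaling the core medians were -0.95, 0.29 and 0.04 and the regulatory medians -1.23, -0.20 and -0.48, where the medians of all genes were -0.60, 0.47 and 0.24. With all 15 libraries, both particles thus lay below the median of all genes in the 3 comparisons under either scaling. Against 0 h, the regulatory genes below 0 numbered 15 of 17 at 16 h, 13 at 32 h and 14 at 64 h, and the core genes below 0 numbered 12 of 14, 9 and 8.

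Within a library the scaling cancels from the difference between the particles. The mean log2 level of the core genes minus that of the regulatory genes was 0.82, 0.41 and 1.43 in the 0 h libraries, 1.26, 1.44 and 1.19 at 16 h, 1.48, 1.27 and 1.11 at 32 h, 0.93, 1.13 and 1.07 at 48 h, and 1.23, 1.22 and 1.32 at 64 h. The 0 h replicates 1 and 2 lay below all 12 later libraries, while replicate 3, which differed from them by gene length, lay among the highest. For 0, 16, 32, 48 and 64 h in turn, the means were 0.89 ± 0.51, 1.30 ± 0.13, 1.29 ± 0.19, 1.04 ± 0.10 and 1.26 ± 0.06, and without replicate 3 the 0 h mean was 0.62. With all 3 libraries the spread at 0 h exceeded every difference between the means of the time points. As summed counts, the core took 1.46 ± 0.54, 1.82 ± 0.18, 1.64 ± 0.13, 1.39 ± 0.11 and 1.58 ± 0.17 times the regulatory particle in the same order of time points.

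**Figure D4:**
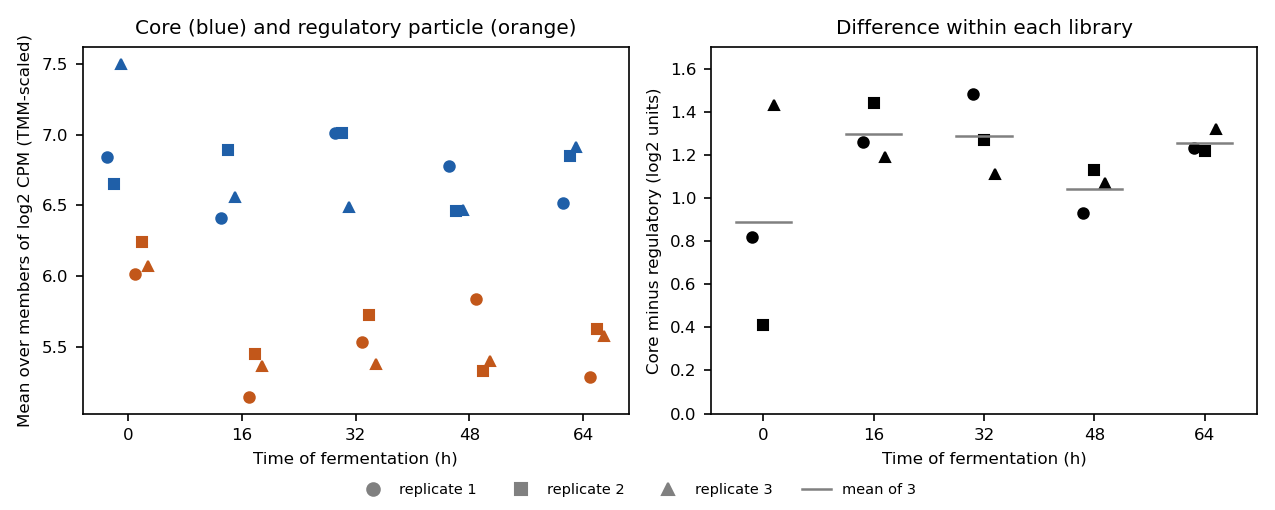
Left, mean over the core genes (blue, 14) and over the regulatory genes (orange, 17) of log2 TMM-scaled CPM in each library against time in h; right, the difference between both means within each library, with the mean of 3 as a line. The difference lies between 0.93 and 1.48 in all libraries from 16 h on, and spans 0.41 to 1.43 at 0 h.

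Correlations among the members are given as a description, over 15 libraries that share 5 time points and a common scaling, with no test. The median Pearson correlation of log2 levels was 0.37 over pairs of core genes, 0.39 over pairs of regulatory genes and 0.29 between core and regulatory genes, beside 0 over all pairs of tested genes. Single pairs ranged from -0.53 to 0.95 in the core and from -0.78 to 0.93 in the regulatory particle. PRE4 among the core genes and RPN2 among the regulatory genes had the highest median correlation with the rest of their particle (0.54 and 0.62). PRE1 (0.05), PRE5 (0.07), RPN1 (-0.05), RPT3 (-0.01) and RPT4 (0.05) had the lowest. Part of the shared variation lay between replicates of a time point. At 48 h, replicate 1 was the highest library for 13 of 14 core and 16 of 17 regulatory genes, and for 36.7% of all tested genes. At 32 h, replicate 3 was the lowest for 13 of 14 core and 12 of 17 regulatory genes, and for 42.3% of all tested genes.

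Other genes of the pathway were taken from a list of 79, matched by symbol or KOG text: 15 helpers of the proteasome, 49 genes of ubiquitin and its activating, conjugating and ligating enzymes, and 15 deubiquitinating enzymes. Of the helpers, 5 rose and 2 fell at 16 h against 0 h, against 22.6% and 17.8% of all genes. At 32 h 6 rose and 1 fell, against 25.8% and 25.9%, and at 64 h 7 rose and 1 fell, against 26.6% and 25.8%. Scaled by library size, 0 rose and 5 fell at 16 h, against 9.8% and 27.7% of all genes. Under that scaling 7 rose and 0 fell at 32 h, against 31.3% and 14.1%, and 7 rose and 0 fell at 64 h, against 27.2% and 17.2%. RPN4 (WICANDRAFT_80289) is the symbol of the regulator of subunit genes in S. cerevisiae. It had 115, 103 and 71.7 CPM at 0 h, 159, 127 and 212 at 16 h, 100, 109 and 99.8 at 32 h, 173, 117 and 158 at 48 h, and 59.1, 74.8 and 76.8 at 64 h. All 16 h libraries were above those of 0 h, and the 64 h libraries were below those of 16, 32 and 48 h. RPN4 was higher at 16 h than at 0 h by 0.78 on the log2 scale (SE 0.30, adjusted p = 0.0477), a call lost without any of 13 single libraries and with library size scaling (0.06). At 64 h it was lower than at 16 h (log2 fold change -1.24, SE 0.30, adjusted p = 0.00521, and -0.32 with library size scaling, where it did not pass).

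Shuttle factors carry ubiquitylated proteins to the regulatory particle, and DSK2 and RAD23 both rose. DSK2 (WICANDRAFT_12982) had 208, 160 and 318 CPM at 0 h, 482, 478 and 259 at 16 h, 2604, 1880 and 1197 at 32 h, 1368, 968 and 1712 at 48 h, and 1087, 852 and 1551 at 64 h. Every library from 32 h on was above every earlier one. DSK2 was higher at 32 h than at 0 h by a log2 fold change of 3.05 (SE 0.47, adjusted p = 0.000128) and at 32 h than at 16 h by 2.22 (SE 0.46, adjusted p = 0.00240). RAD23 averaged 397 ± 87.6 CPM at 32 h and 96.9 ± 17.8 CPM at 16 h (log2 fold change 2.03, SE 0.34, adjusted p = 0.000591). UFD1, a cofactor of the CDC48 unfoldase, averaged 434 ± 195 CPM at 64 h and 48.6 ± 21.6 CPM at 0 h (3.16, SE 0.59, adjusted p = 0.000531). CDC48 itself had 278, 278 and 333 CPM at 16 h, against 910, 768 and 804 CPM at 0 h (log2 fold change -1.48, SE 0.33, adjusted p = 0.00238). The mean of CDC48 at 64 h was 729 ± 68.0 CPM, higher than at 16 h (1.30, SE 0.32, adjusted p = 0.00637).

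Assembly chaperones and alternative caps showed a further set of courses. HSM3, a chaperone of the Rpt ring, averaged 135 ± 27.9 CPM at 64 h and 24.7 ± 5.29 CPM at 0 h (log2 fold change 2.45, SE 0.29, adjusted p = 1.37e-05). RPN14, another such chaperone, averaged 71.3 ± 14.6 CPM at 64 h and 30.6 ± 4.97 CPM at 0 h (1.22, SE 0.28, adjusted p = 0.00258). UMP1, the maturation factor of the core, averaged 228 ± 8.42 CPM at 64 h and 109 ± 24.4 CPM at 0 h (1.07, SE 0.37, adjusted p = 0.0235), a call lost without 0 h replicate 1 or 2. BLM10, an activator that caps the core in place of the regulatory particle, had 198, 220 and 152 CPM at 16 h, against 75.3, 74.3 and 46.0 CPM at 0 h. It was higher by 1.54 (SE 0.30, adjusted p = 0.00114) at 16 h, a call lost with library size scaling (0.79), and by 1.5 at 64 h (adjusted p = 0.000975), which held under that scaling. ECM29, a proteasome adaptor, averaged 9.37 ± 0.288 CPM at 32 h and 29.0 ± 10.8 CPM at 0 h (-1.63, SE 0.36, adjusted p = 0.00178, and -1.23 with library size scaling, where it did not pass). UBP6, a deubiquitinase docked on RPN1, did not pass over the course (adjusted p = 0.290), with 16 h replicate 2 at 12.6 CPM against 4.76 CPM in each of the other 16 h libraries. Over 0, 16, 32, 48 and 64 h, RPN13 averaged 52.4 ± 4.25, 36.2 ± 19.5, 48.6 ± 7.71, 54.2 ± 9.46 and 53.5 ± 15 CPM. SEM1 averaged 35.6 ± 19.4, 21.8 ± 10.7, 44.0 ± 15.3, 31.5 ± 6.44 and 38.2 ± 4.68 CPM. Neither of these subunits passed against 0 h with TMM scaling, and RPN13 fell at 16 h with library size scaling (adjusted p = 0.0121).

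**Figure D5:**
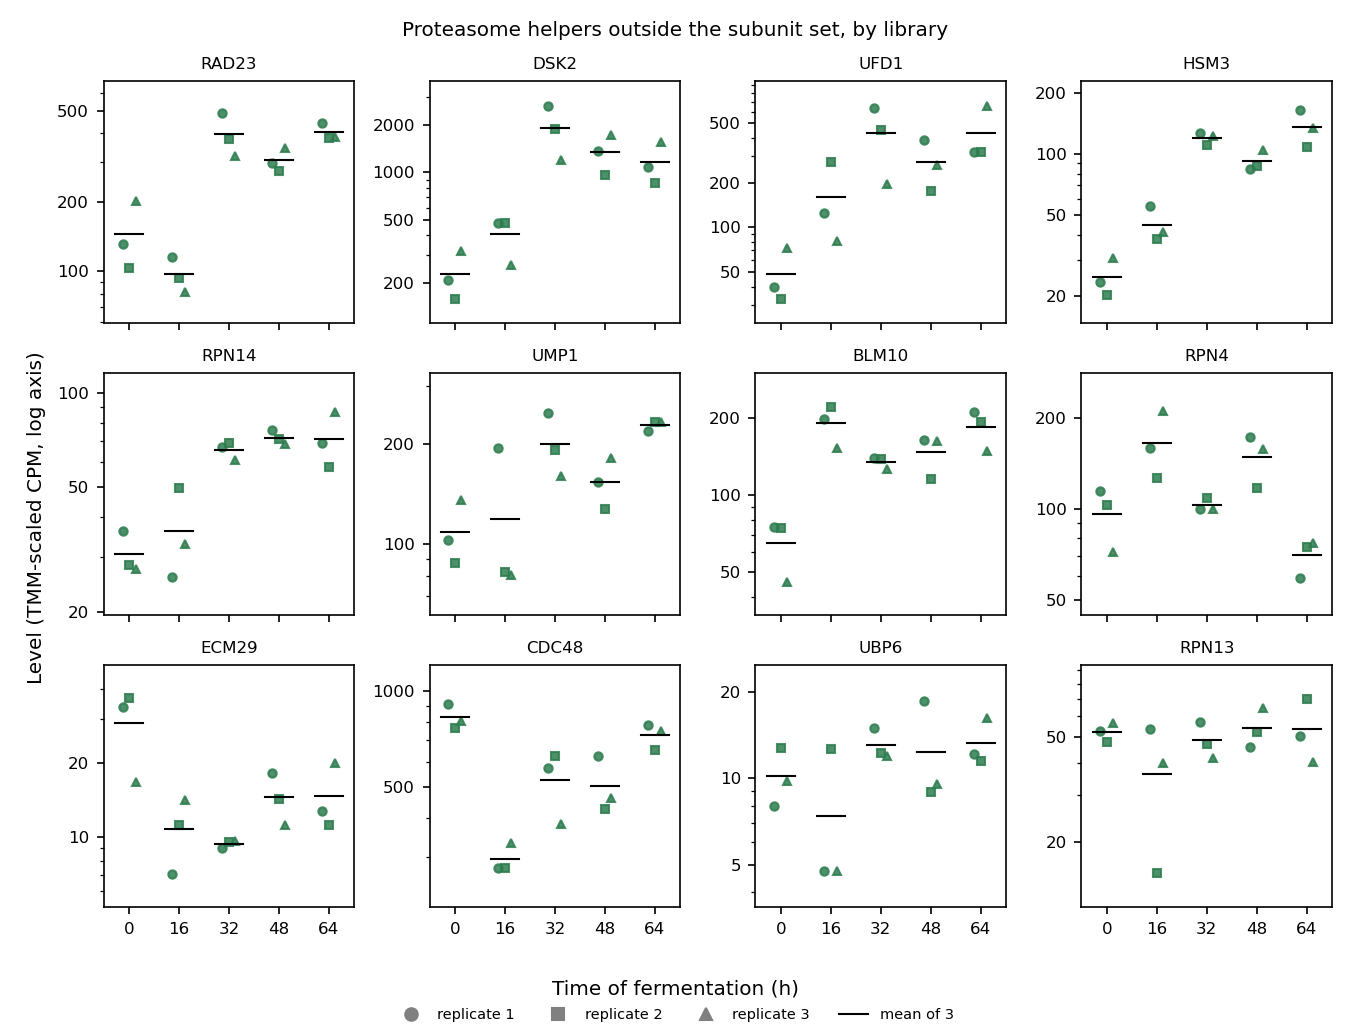
Level of 12 proteasome helpers outside the KOG rule in each library (TMM-scaled CPM, log axis, a scale for each gene) against time of fermentation in h; shapes are the 3 replicates and lines the means. RAD23, DSK2 and HSM3 are higher in every library from 32 h on than in every earlier one, BLM10 is above 100 CPM in every library after 0 h, and CDC48 is lowest at 16 h.

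Of the 49 genes of ubiquitin and its enzymes, 17 rose and 3 fell at 16 h against 0 h, against 22.6% and 17.8% of all genes. At 32 h 19 rose and 3 fell, against 25.8% and 25.9%, and at 64 h 20 rose and 1 fell, against 26.6% and 25.8%. Scaled by library size, 6 rose and 7 fell at 16 h, against 9.8% and 27.7% of all genes. UBA1, the activating enzyme, did not pass over the course (adjusted p = 0.860) and averaged between 151 and 190 CPM at each time point. UBI4 is the symbol of polyubiquitin in S. cerevisiae, while the KOG text of this gene names a fusion of ubiquitin and 60S ribosomal protein L40. UBI4 had 314, 293 and 186 CPM at 32 h, against 77.4, 139 and 132 CPM at 16 h (log2 fold change 1.18, SE 0.42, adjusted p = 0.0444), a call lost without any of 6 single libraries. HEL2, a ligase of stalled ribosomes in S. cerevisiae, had 206, 2058 and 126 CPM at 16 h, against 14.8, 15.8 and 9.95 CPM at 0 h. Its log2 fold change at 16 h was 5.88 (SE 0.93, adjusted p = 0.000226), and 3.62 without 16 h replicate 2 and 64 h replicate 3. PEX10, of the peroxisomal ligase complex, also had its highest value in 16 h replicate 2 (178 CPM, against 30.7 and 24.4 in the others), with log2 fold changes at 16 h of 2.95 and 1.46. MMS21, a SUMO ligase in S. cerevisiae, averaged 1.01 ± 0.103 CPM at 16 h and 9.33 ± 1.57 CPM at 0 h (-3.21, SE 0.36, adjusted p = 1.66e-05).

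The genes of this list without a symbol included the largest rises at 32 and 64 h against 0 h. Of those named here, WICANDRAFT_23170 and WICANDRAFT_25961 carry the KOG text ubiquitin-protein ligase. Genes with symbols of conjugating enzymes, such as UBC1 and UBC7, carry the same text. WICANDRAFT_79687, annotated as a peroxisomal membrane ligase, averaged 767 ± 376 CPM at 32 h and 46.5 ± 14.4 CPM at 0 h (log2 fold change 4.04, SE 0.54, adjusted p = 3.77e-05). WICANDRAFT_23170 had 1.10, 1.52 and 4.85 CPM at 64 h, against 23.9, 34.5 and 24.7 CPM at 16 h (-3.47, SE 0.47, adjusted p = 9.3e-05). WICANDRAFT_25961 averaged 20.8 ± 1.54 CPM at 32 h and 4.01 ± 1 CPM at 16 h (2.37, SE 0.29, adjusted p = 6.84e-05), and was also lower at 16 h than at 0 h (-1.79, adjusted p = 0.000220). RMD5, of the ligase that degrades gluconeogenic enzymes in S. cerevisiae, averaged 84.1 ± 9.69 CPM at 64 h and 16.8 ± 6.97 CPM at 16 h (2.32, SE 0.35, adjusted p = 0.000240). Among the 15 deubiquitinating enzymes, 2 rose and 1 fell at 16 h against 0 h, against 22.6% and 17.8% of all genes. At 32 h 2 rose and 2 fell, against 25.8% and 25.9%, and at 64 h 3 rose and 4 fell, against 26.6% and 25.8%. WICANDRAFT_37117, annotated as UBP14, fell at 64 h against 0 h by 1.49 on the log2 scale (adjusted p = 0.0203, and 0.101 with library size scaling). It averaged 1.72 ± 0.295 CPM at 64 h and 4.83 ± 2.09 CPM at 0 h. WICANDRAFT_37140, which carries the same annotation, averaged 20.9 ± 4.87 CPM at 64 h and 20 ± 5.31 CPM at 0 h.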

How the data were processed

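Total RNA was extracted with TRIzol and polyadenylated RNA was made into libraries with the VAHTS Universal V6 kit, per the labels' protocols. The tools fastp, HISAT2 and HTSeq appear, with no version, in the submitters' processing notes. Values are whole-number counts for each gene as deposited by the authors, with no normalisation. The genome build and the strand setting are not given in the sources used here, so no coordinates are printed. All 6571 locus tags matched the RefSeq annotation of assembly Wican1, from which gene lengths and 34 of the 35 members' symbols come.

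Groups are the time points, read from the sample titles. Genes were kept by filterByExpr (6327 tested), scaled by TMM and fitted in edgeR 4.0.16 (R 4.3.3) with a quasi-likelihood model of all 15 libraries (residual degrees of freedom 10, common BCV 0.418). A test over all 5 time points and 7 contrasts were adjusted by Benjamini-Hochberg within each over all tested genes, with a threshold of 0.05. SE is approximate, from the log2 fold change and its F. Log2 CPM used a prior count of 1. The pipeline was tested on simulated counts.

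The members and gene lists were chosen with earlier results of these data known. Named genes are the catalytic core subunits, RPN11, RPN10, RPN1, the 2 largest called rises and falls of each particle per contrast, the 7 pathway genes RPN4, UMP1, BLM10, UBP6, CDC48, UBI4 and UBA1, and the 2 largest called rises and falls of the pathway list per contrast; RAD23, HSM3, RPN14, RPN13, SEM1 and further members are named beside them. Alternatives were DESeq2 1.42.0, limma-voom (limma 3.58.1), other scalings, filters, blocks and left-out libraries. Replicates are biological per the labels; floors cover counting error only. Reads shared between near-identical genes were not assessed.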

Additional observations from a re-analysis of the deposited data

How the results depend on the processing

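Scaling by library size alone moved the counts most, with a shift of all genes alike. Under it 28 members passed over the course, and the members that fell and rose numbered 17 fallen at 16 h against 0 h, 2 fallen and 6 risen at 32 h against 0 h, 5 fallen at 64 h against 0 h, 0 fallen and 26 risen at 32 h against 16 h, and 0 fallen and 16 risen at 64 h against 16 h. Against 0 h, the core medians were then -0.95 at 16 h, 0.29 at 32 h and 0.04 at 64 h, and the regulatory medians -1.23, -0.20 and -0.48. Against 16 h, the core medians were 1.36 at 32 h and 1.02 at 64 h, and the regulatory medians 1.44 and 1.10. For 48 h against 32 h the core had 0.16 and the regulatory particle 0.36, and for 64 h against 48 h they had -0.48 and -0.67. Directions turned for many members. At 32 h against 16 h these included PNO1 (0.40), PRE10 (1.03), SCL1 (1.15), RPN8 (1.09), RPT4 (1.15), PUP1 (0.71), PUP2 (0.66), RPN5 (0.80) and RPN11 (0.90). At 64 h against 16 h they included PNO1 (0.07) and RPN8 (0.76). The median of all genes under this scaling was 1.10 at 32 h and 0.86 at 64 h against 16 h, so these turns follow from the shift of all genes. Some directions also turned against 0 h, such as that of PRE5 at 32 h (0.30, against -0.17 with TMM). Per kb of gene length, core minus regulatory was 1.53, 1.93, 1.92, 1.68 and 1.89 at 0, 16, 32, 48 and 64 h, and with medians over members it was 1.09, 0.75 and 1.05 for 16, 48 and 64 h.

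With DESeq2, 3 members rose at 64 h against 16 h, beside 1321 of all 6327 genes. A filter of at least 10 CPM gave regulatory medians of -0.82 at 32 h and -0.87 at 64 h against 0 h. With it 1 member rose at 32 h against 0 h, beside 1234 of all 4552 genes kept. At 32 h against 16 h, 1 member fell with no filter on low counts, beside 1115 of all 6523 genes. With only the libraries compared, 1 member fell and 1 rose there, beside 690 and 537 of 6212 genes. At 64 h against 16 h, only the libraries compared gave 1 fall, beside 576 of 6204 genes. With the replicate number as a block, 1 member rose at 32 h against 0 h, beside 1514 of all 6327 genes. At 32 h against 16 h, 1 member rose and 1 fell with the block, beside 762 and 921 genes. The numbers do not pair the libraries: of 30 same-numbered pairs 6 had a correlation over 0.1 (-0.599 to 0.514), and 0 libraries were closest to their own number. Both 16 h replicate 2 and 64 h replicate 3 were also left out together. Then 4 members rose at 32 h against 0 h, beside 1979 of all 6338 genes, and 4 rose at 32 h against 16 h, beside 1445. At 64 h, 17 members fell against 0 h, beside 1874 genes, and 5 rose against 16 h, beside 1447. At 64 h against 48 h, 1 member fell, beside 998 genes.

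Leaving out each library in turn gave 10 to 17 members over the course, beside 58.5% to 75.9% of all genes. It gave 6 to 9 falls at 16 h against 0 h, beside 923 to 1202 of all genes. At 32 h against 0 h it gave 0 to 4 rises and 5 to 13 falls, beside 1293 to 1846 and 1194 to 1860 genes. At 64 h against 0 h it gave 1 to 4 rises and 7 to 13 falls, beside 1351 to 1847 and 1314 to 1846 genes. At 32 h against 16 h it gave 1 to 4 rises and 1 to 2 falls, beside 558 to 1238 and 671 to 1344 genes. At 64 h against 16 h it gave 1 to 6 rises and 2 to 5 falls, beside 836 to 1460 and 894 to 1508 genes. The core median ranged from -0.58 to 0.05 and the regulatory median from -0.85 to -0.60 at 64 h against 0 h, and from 0.07 to 0.42 and -0.14 to 0.25 at 64 h against 48 h. Of the results over groups, 627 values under alternatives stayed near the reported value and 84 moved.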
